A study of Mus musculus with 2 samples.

Results

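The 8 genes described here encode regulators of oocyte formation and are referred to as the oocyte transcription factor genes: Sohlh1, Sohlh2, Figla, Nobox, Lhx8, Taf4b, Ybx2 and Foxo3. They were chosen by name, as the rows of the germ cell count table whose Ensembl identifiers map to these symbols, and are 8 of the 42422 genes in that table. Germ cells were measured from mouse gonads at E12.5, from embryos of 129T2svJ Oct4-eGFP males and Swiss females. XX and XY gonads were taken directly (0 h), or kept in culture together with the mesonephros for 24 h or 72 h. Cultured XX gonads received the vehicle DMSO. Cultured XY gonads received DMSO or an inhibitor at 500 nM, either BGJ398/Infigratinib, which blocks FGF receptors (FGFRi), or PD0325901/Mirdametinib, which blocks MEK1/2 (MEKi). All groups carried the Oct4-eGFP reporter, which drives green fluorescence in the germ line and was used to sort living germ cells from gonads of several embryos pooled per sample. The inhibitors were added to the culture of the whole gonad, so that a group describes germ cells of a treated organ. Each of the 10 groups held 4 libraries, which makes 40. As the sources do not say whether libraries of a group came from separate cultures, p-values measure the spread between libraries.

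SOHLH1 and SOHLH2 are basic helix-loop-helix (bHLH) factors that can pair with each other and bind E-box sequences. They are needed for primordial follicles in the ovary and for differentiating spermatogonia in the testis, and lie upstream of Figla, Nobox, Lhx8 and Kit. FIGLA is an oocyte bHLH factor that activates the zona pellucida genes. NOBOX and LHX8 are homeodomain proteins, the latter of the LIM class, that keep oocyte genes on in primordial follicles. TAF4B is a germ cell-enriched subunit of the general transcription factor TFIID. YBX2 (MSY2) is a cold-shock domain protein that binds DNA and stabilises stored mRNA in oocytes and male germ cells. FOXO3 is a forkhead factor that holds primordial follicles dormant until KIT and PI3K signalling moves it out of the nucleus. It differs from the others in being expressed in many cell types.

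Promoter windows of 300 bases, from 250 bases before to 50 after the annotated start, are given for the 4 genes whose levels differed most between the groups, because bHLH and homeodomain members of this set bind the motifs searched. RefSeq (GRCm38.p6) held such windows for 7 of the 8 genes, and each window was found once, letter for letter, in GRCm39, which gave the coordinates. The RefSeq starts lay 91 bases (Sohlh1), 200 bases (Sohlh2), 99 bases (Lhx8) and 1020 bases (Figla) inside the GENCODE genes that were counted, so that the Figla window lies wholly within its gene. E-boxes (CANNTG) are in capitals. The homeobox cores TAATTA and TAATTG were searched on both strands and would also be in capitals, but did not occur in these windows.
Sohlh1, chr2:25737211-25737510, minus strand: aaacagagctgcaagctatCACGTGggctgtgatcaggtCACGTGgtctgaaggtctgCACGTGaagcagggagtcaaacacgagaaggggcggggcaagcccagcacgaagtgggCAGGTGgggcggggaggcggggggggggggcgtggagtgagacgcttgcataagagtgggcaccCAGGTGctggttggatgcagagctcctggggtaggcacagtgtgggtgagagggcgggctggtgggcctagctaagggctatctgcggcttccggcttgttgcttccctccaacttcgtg
Sohlh2, chr3:55089215-55089514, plus strand: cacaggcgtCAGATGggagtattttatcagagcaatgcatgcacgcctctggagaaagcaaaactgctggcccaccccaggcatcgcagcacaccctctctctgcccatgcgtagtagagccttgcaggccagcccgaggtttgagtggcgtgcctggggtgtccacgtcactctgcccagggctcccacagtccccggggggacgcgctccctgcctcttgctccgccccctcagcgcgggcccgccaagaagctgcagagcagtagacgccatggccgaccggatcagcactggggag
Figla, chr6:85993923-85994222, plus strand: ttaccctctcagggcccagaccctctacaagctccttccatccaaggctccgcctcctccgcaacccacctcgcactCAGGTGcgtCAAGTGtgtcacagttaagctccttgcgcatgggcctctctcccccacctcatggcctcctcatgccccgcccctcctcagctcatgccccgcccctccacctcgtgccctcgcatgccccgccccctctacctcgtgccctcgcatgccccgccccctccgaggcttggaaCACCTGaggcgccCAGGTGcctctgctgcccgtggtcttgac
Lhx8, chr3:154036148-154036447, minus strand: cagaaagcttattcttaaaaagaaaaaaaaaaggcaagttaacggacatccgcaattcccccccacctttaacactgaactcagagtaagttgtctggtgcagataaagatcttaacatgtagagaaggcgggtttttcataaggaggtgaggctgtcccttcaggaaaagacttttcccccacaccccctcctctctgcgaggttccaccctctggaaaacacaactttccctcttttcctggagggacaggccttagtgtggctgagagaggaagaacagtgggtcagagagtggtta

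The Sohlh1 window held 5 E-boxes, 3 of which were the palindrome CACGTG, a form that bHLH dimers bind. Of 32851 mouse promoter windows of the same length in the table, 72.31% held at least 1 CANNTG and 7.15% at least 1 CACGTG, and 29 windows (0.0883%) held 3 or more CACGTG. The Figla window held 4 CANNTG and the Sohlh2 window 1. The Lhx8 window held none, and at 47.0% G and C and 4 CpG it was also the window poorest in CpG of the 4. A homeobox core was present in 12.4% of all windows and in none of the members' windows. A match in these letters is a description of the window only.

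The genes lie on GRCm39 as follows: Sohlh1 at chr2:25733007-25737351, Sohlh2 at chr3:55089265-55117382, Figla at chr6:85993153-85997978, Nobox at chr6:43280608-43286488, Lhx8 at chr3:154011931-154036296, Ybx2 at chr11:69826474-69832432, Foxo3 at chr10:42057837-42154007 and Taf4b on chromosome 18. Sohlh2, Nobox and Ybx2 overlap antisense genes in GENCODE (Gm65848, Gm68362 and Eif5a among them), which the authors' code kept apart by counting with strand. Taf4b contains the processed pseudogene Gm21055 and Foxo3 several long non-coding genes on its own strand, so that reads there could be split between the overlapping genes. No other gene overlapped Sohlh1, Figla or Lhx8.

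The libraries held 1178953 to 5199153 counts, where reads with the same molecular identifier were meant to count once. The methods and the authors' code give different lengths for that identifier. Ddx4 and Dazl and the other 6 germ cell markers were counted in every group. As counts scaled to a library of one size (CPM), the 8 markers summed to 1796 to 5718 CPM per library, against 22.5 to 138 CPM for 13 gonadal somatic markers. The somatic sum was highest in XX 72 h DMSO germ cells, at 92.2 to 138 CPM, against 22.5 to 33.7 CPM in XX 24 h DMSO and 66.8 to 99.5 CPM in XY 72 h DMSO. In bulk samples, fewer cells of a type and less RNA per cell cannot be told apart. The libraries were sequenced in 2 pools: pool 1 held both 0 h groups and the 24 h DMSO and MEKi groups, and pool 2 held XY 24 h FGFRi and all 72 h groups. Comparisons of 72 h with 24 h, and of 24 h FGFRi with DMSO, therefore cross the pools, and pool and group cannot be told apart in them.

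Indices were reused between the pools, so that 16 pairs of libraries, each with 1 member per pool, carried an identical index. Across genes nearly absent from the pool 1 libraries without a partner, a pool 1 library held a median of 3.998% of the count of its pool 2 partner, and this pooled value was taken out of every pool 1 library. In 12 of the 16 libraries the library's own median was 2.62% to 4.769%, from 12 to 35 genes. The 4 XY 24 h DMSO libraries had only 0, 3, 3 and 4 such genes, with medians of 20.4%, 1.96% and 4.44% in the last 3, so that the share was barely measured in that group. The pool 2 share rests on 0 to 3 genes per library. This touched the values of Sohlh1, Figla and Sohlh2 in particular. Values without that share are given for many of the comparisons in which they differ, but not for all. The 4 XY 24 h MEKi and the 4 XY 24 h FGFRi libraries had no partner in the other pool.

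All 8 genes passed the filter on low counts and were tested among 15252 genes. A gene was called where limma's treat found a difference over 1.5-fold and the p adjusted by the method of Benjamini and Hochberg (FDR) was under 0.05. Of the 8 genes, 7 were called in at least 1 of 16 comparisons, 3 of which were interactions, and Foxo3 in none. In all, 36 of 128 values of a gene in a comparison were called. The matching totals over all tested genes were not computed, so these 2 totals are descriptions only. Per comparison, 0.00656% to 41.0% of all tested genes were called. The counts per comparison are given beside the results, each with the percentage of all tested genes that were called in the same comparison.

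**Figure D1:**
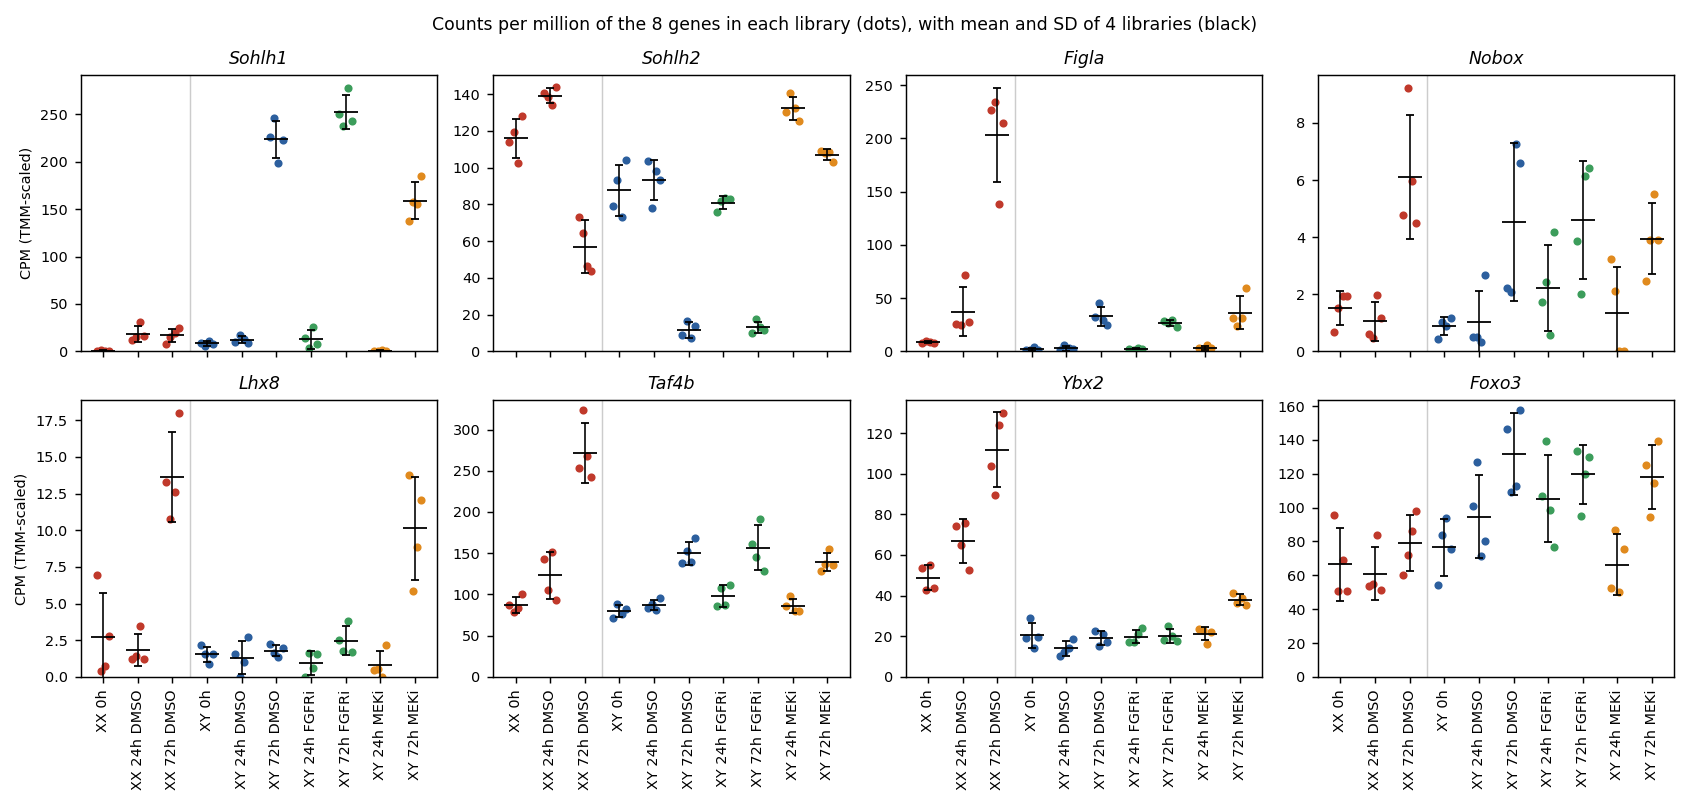
Level of each of the 8 genes in every library (dots, CPM on a linear axis that starts at 0 and differs between genes), with the mean and SD of 4 libraries per group (black). XX libraries are red, XY 0 h and DMSO blue, FGFRi green and MEKi orange: Sohlh1 reached 138 to 278 CPM in the XY 72 h libraries alone, Figla 138 to 234 CPM in XX 72 h, and Sohlh2 fell to 7.27 to 17.5 CPM in XY 72 h DMSO and FGFRi but not in MEKi.

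Sohlh1 was the member with the widest range, and at 72 h it was a gene of XY germ cells. The 4 XY 72 h DMSO libraries held 226, 246, 199 and 223 CPM, the FGFRi libraries 250.1, 238, 278 and 243 CPM, and the MEKi libraries 138, 158, 156 and 184 CPM. The 4 XX 72 h DMSO libraries held 7.97, 14.9, 19.3 and 25.0 CPM, so that every XY library at this time was above every XX library. Sohlh1 was 14.7-fold higher in XY than XX germ cells at 72 h (log2 fold change 3.88, SE 0.25, FDR 7.86e-17), and it rose 20.5-fold in XY germ cells from 24 h to 72 h (4.36, SE 0.24, FDR 1.03e-18). In XX germ cells the levels at 24 h and 72 h overlapped, with a log2 fold change of -0.09 (95% CI -0.72 to 0.54, FDR 1.0).

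Before 72 h, Sohlh1 counts were few and followed the library with the shared index. The counts were 13 to 21 in XY 0 h, 33 to 63 in XX 24 h DMSO and 20 to 39 in XY 24 h DMSO libraries, and these were 3.54% to 6.31%, 4.23% to 5.82% and 4.17% to 7.17% of the counts of their partners, which were XY 72 h DMSO, FGFRi and MEKi libraries. The XX 0 h libraries, whose partners were XX 72 h libraries with 15 to 39 counts, held 1 to 3 counts. The XY 24 h MEKi libraries, which had no partner, held 2, 0, 3 and 0 counts, and the XY 24 h FGFRi libraries, also without one, 16, 4, 45 and 15 counts. With the index share taken out, 0 to 15 counts were left in each of the pool 1 libraries with a partner.

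**Figure D2:**
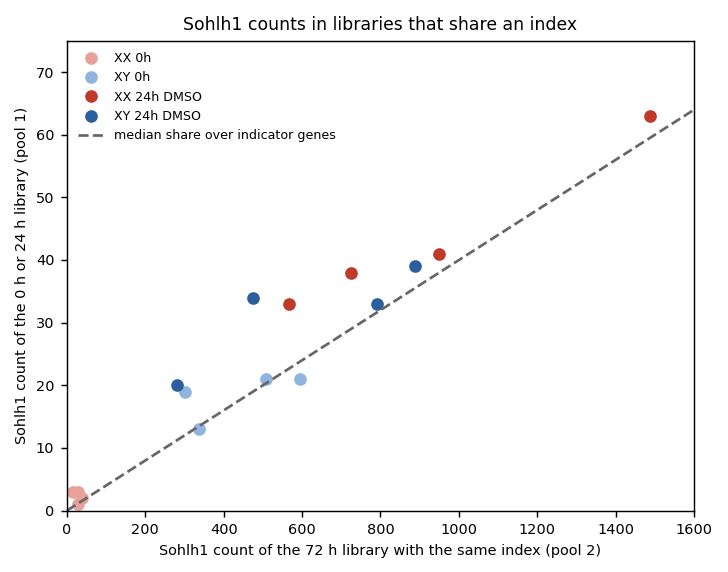
Sohlh1 count of each pool 1 library (vertical) against that of its pool 2 partner in index (horizontal), for the 16 pairs; the dashed line is the median share of 3.998% over indicator genes. The 12 libraries of XY 0 h, XX 24 h DMSO and XY 24 h DMSO lie at 3.54% to 7.17% of their partners.

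As deposited, Sohlh1 was called higher in XY than XX germ cells at 0 h (log2 fold change 2.79, SE 0.61, FDR 0.0154), higher in XX germ cells at 24 h than at 0 h (3.94, SE 0.58, FDR 5.04e-05) and lower in XY 24 h MEKi than DMSO (-4.06, SE 0.73, FDR 0.00580). None of the 3 was called once the index share was taken out, when the log2 fold changes were 0.35 (FDR 1.0), 2.49 (FDR 0.264) and -1.25 (FDR 1.0). The last value, like all those without the share that use XY 24 h DMSO, assumes the pooled share in that group. The last was also not called without XY 24 h MEKi replicate 6 (-3.60, FDR 0.0732), and the 0 h difference not without XX 0 h replicate 4 or 5 (log2 fold change 2.73 and 2.72). The rise of XY Sohlh1 from 24 h to 72 h was larger without the share, at 7.27 (FDR 4.74e-14), and the XX change from 24 h to 72 h was then called as a rise, at 2.65 (FDR 0.00364).

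Sohlh2, the partner of Sohlh1, changed in the opposite direction. It was high in both sexes at 0 h and 24 h and fell in XY DMSO germ cells by 72 h. Under MEKi the XY libraries held 125 to 141 CPM at 24 h and 103 to 109 CPM at 72 h, a change that was not tested. The XY 0 h libraries held 79.3, 93.5, 73.3 and 104 CPM and the XY 24 h DMSO libraries 103, 78.1, 98.3 and 93.4 CPM. At 72 h the XY DMSO libraries held 8.88, 16.6, 7.27 and 13.8 CPM, all below every library of 0 h and 24 h. The fall from 24 h to 72 h was 8.34-fold (log2 fold change -3.06, SE 0.22, FDR 1.65e-13). In XX germ cells Sohlh2 fell 2.45-fold over the same time (-1.29, SE 0.14, FDR 3.45e-05), from 134 to 144 CPM to 43.7 to 73.3 CPM per library. At 72 h it was 5.05-fold lower in XY than XX germ cells (-2.34, SE 0.24, FDR 5.35e-09), and this sex difference was larger than at 0 h by an interaction of -1.97 (SE 0.26, FDR 1.74e-05).

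The XY 72 h MEKi libraries held 109, 108, 109 and 103 CPM of Sohlh2, above every XY 72 h DMSO and FGFRi library and every XX 72 h library. They lay within the range of XX 0 h (102 to 128 CPM) and overlapped the top of that of XY 0 h (73.3 to 104 CPM), where 3 of the 4 were above every XY 0 h library. Sohlh2 was 9.49-fold higher in MEKi than DMSO at 72 h (log2 fold change 3.25, SE 0.22, FDR 4.30e-14) and 8.48-fold higher than in FGFRi (3.08, SE 0.16, FDR 9.05e-18). The FGFRi libraries, with 10.1, 17.5, 13.04 and 11.6 CPM, overlapped those of DMSO, and the log2 fold change was 0.16 (95% CI -0.35 to 0.67). At 24 h, MEKi libraries held 125 to 141 CPM and did not overlap the 78.1 to 103 CPM of DMSO, but the difference was not called (0.48, 95% CI 0.24 to 0.72, FDR 1.0). The MEKi effect at 72 h exceeded that at 24 h by 2.77 (SE 0.25, FDR 3.04e-08). In the XY 72 h DMSO libraries Sohlh2 counts were 11 to 40, or 4.1% to 25.3% of those of their XY 0 h index partners. With the share taken out the MEKi effect at 72 h was larger, at 5.14 (FDR 3.23e-10), and the FGFRi effect was 1.45 (FDR 1.0). MEKi was then higher than FGFRi by 3.69 (FDR 2.63e-14), and its effect at 72 h exceeded that at 24 h by 4.63 (FDR 2.52e-07). The XY fall from 24 h to 72 h was then -4.91 (FDR 2.22e-10), the 72 h sex difference -4.08 (FDR 4.13e-08) and its change from 0 h -3.70 (FDR 2.00e-06).

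Figla rose in both sexes and was higher in XX germ cells at every time. In XX germ cells it went from 7.47 to 9.58 CPM per library at 0 h, through 25.3, 24.9, 71.8 and 27.7 CPM at 24 h, to 227, 234, 138 and 214 CPM at 72 h. No 2 of these groups overlapped. The rise was 3.52-fold in the first 24 h (log2 fold change 1.82, SE 0.30, FDR 0.00570) and 6.91-fold from 24 h to 72 h (2.79, SE 0.19, FDR 7.53e-14). Without XX 24 h DMSO replicate 6, which held 71.8 CPM, the steps were 1.61 (FDR 0.0280) and 2.97 (FDR 1.06e-14). The first step was not called without XX 0 h replicate 5 (1.71, FDR 0.0599). With the index share taken out it was larger, at 3.15 (FDR 5.41e-05), and the second was 2.91 (FDR 3.92e-13).

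In XY germ cells Figla was counted 2 to 12 times per library at 0 h and 24 h DMSO, and then rose 14.4-fold to 32.0, 45.6, 29.7 and 25.0 CPM at 72 h (log2 fold change 3.84, SE 0.52, FDR 5.23e-07). The XY 72 h libraries reached the range of XX germ cells at 24 h, and all were below the XX 72 h libraries. Figla was lower in XY than XX germ cells 13.01-fold at 24 h (-3.70, SE 0.52, FDR 5.34e-06) and 6.26-fold at 72 h (-2.65, SE 0.19, FDR 6.63e-14). The XY 24 h DMSO counts were 3.17% to 7.89% of those of their XY 72 h MEKi index partners, and 0 to 6 counts were left without the share. The XY rise was then 5.80 (FDR 1.01e-07) and the 24 h sex difference -5.51 (FDR 1.53e-06), both still called, and the 72 h sex difference was -2.62. At 0 h the difference of -2.52 (SE 0.59, FDR 0.0329) rested on 12 to 27 counts in XX and 2 to 5 in XY libraries. The XX 0 h counts were 5.47% to 6.89% of those of their XX 72 h index partners, 4 to 10 counts were left without the share, and the difference was then not called (-2.51, FDR 0.235). It was also not called in 5 of 8 fits without 1 library, those without XX 0 h replicate 3 or 4 or XY 0 h replicate 2, 3 or 6 (-2.49 to -2.21, highest FDR 0.273). The change in the sex difference from 0 h to 72 h was -0.13 (95% CI -1.36 to 1.11).

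Lhx8 and Nobox, the homeobox members, were the 2 least counted, with 364 and 275 counts over all 40 libraries. Lhx8 was at 13.3, 10.8, 12.6 and 17.97 CPM in XX 72 h DMSO and 13.8, 5.86, 8.85 and 12.1 CPM in XY 72 h MEKi libraries. XY 72 h DMSO held 2.22, 1.66, 1.32 and 1.98 CPM, and no library of the other 7 groups was above the 6.94 CPM of XX 0 h replicate 2. Lhx8 rose 8.28-fold in XX germ cells from 24 h to 72 h (log2 fold change 3.05, SE 0.52, FDR 0.000104) and was 6.74-fold lower in XY than XX germ cells at 72 h (-2.75, SE 0.48, FDR 9.07e-05). The sex difference at 72 h was larger than at 0 h by -2.89 (SE 0.77, FDR 0.0103), and by -3.50 (FDR 0.00293) with the index share taken out.

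With MEKi at 72 h, Lhx8 in XY germ cells was 4.24-fold higher than with DMSO (log2 fold change 2.09, SE 0.46, FDR 0.0149) and 3.60-fold higher than with FGFRi (1.85, SE 0.37, FDR 0.00711). The MEKi libraries did not overlap those of either group. Without XY 72 h DMSO replicate 4 or 5 the first was not called (2.03 and 1.99, highest FDR 0.0542). The second was not called in 2 of 11 alternatives other than leaving out a library (highest FDR 0.072). The MEKi libraries overlapped XX 72 h, with a difference of -0.67 (95% CI -1.21 to -0.12, FDR 0.710).

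Nobox rose in XX germ cells from 0.469 to 1.97 CPM at 24 h to 4.49 to 9.22 CPM at 72 h, by 5.77-fold (log2 fold change 2.53, SE 0.66, FDR 0.0130). The XX 24 h counts of 1 to 4 were 6.67% to 37.5% of those of their index partners, and the rise was 3.33 (FDR 0.00228) without the share. In XY DMSO germ cells the libraries went from 0.341 to 2.69 CPM to 2.07 to 7.27 CPM and the groups overlapped (1.58, 95% CI 0.32 to 2.85, FDR 0.173). No library held more than 28 Nobox counts. At 72 h XX and XY libraries overlapped (-0.68, 95% CI -1.65 to 0.28), and a sex difference was not called, with a wide interval.

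Of the 13 somatic markers, 11 were tested and 5 rose in XX libraries from 24 h to 72 h (Foxl2, Gata4, Hsd3b1, Nr2f2 and Wt1), by log2 fold changes of 2.48 to 2.86. The XX 72 h libraries held counts of 12 of the 13, with the Sertoli cell gene Amh at 0. Pecam1, which germ cells also express, fell over the same time (-3.92, FDR 7.68e-10). The endothelial sum, of which it was the top gene, went from 59.99 to 109 CPM down to 5.12 to 9.63 CPM. The part of RNA from these cells in the changes of Figla, Lhx8, Nobox, Taf4b and Sohlh2 was not tested. The germ cell marker sum went from 2627 to 3241 CPM down to 1796 to 2031 CPM over the same time.

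Taf4b and Ybx2 were counted throughout and were highest in XX 72 h germ cells. Taf4b held 253, 323, 268 and 243 CPM there, against 71.9 to 192 CPM in the other 36 libraries. It rose 2.32-fold in XX germ cells from 24 h to 72 h (log2 fold change 1.21, SE 0.12, FDR 3.11e-05). Its XY rise over that time was 0.74 (95% CI 0.49 to 0.99, FDR 0.292) and was not called. At 72 h Taf4b was 1.81-fold lower in XY than XX germ cells (-0.85, SE 0.12, FDR 0.0303), a call that was lost without XX 72 h replicate 4 (-0.77, FDR 0.140) or XY 72 h DMSO replicate 2 or 5.

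Ybx2 held 104, 89.7, 124 and 129.7 CPM in XX 72 h and 22.7, 15.4, 21.1 and 17.1 CPM in XY 72 h DMSO libraries. XX libraries were above XY libraries at 0 h, 24 h and 72 h, with log2 fold changes of -1.11 (FDR 0.0686), -2.09 (FDR 6.83e-08) and -2.51 (FDR 3.89e-13). The difference at 72 h was larger than at 0 h by -1.41 (SE 0.26, FDR 0.00603). Without XY 0 h replicate 3 this interaction was -1.11 (FDR 0.112). In the XY 72 h MEKi libraries Ybx2 was at 41.4, 36.3, 39.0 and 35.4 CPM, above every other XY 72 h library and below every XX 72 h library. The MEKi difference from DMSO was 0.98 (95% CI 0.60 to 1.36, FDR 0.153), and that from FGFRi 0.91 (95% CI 0.60 to 1.23, FDR 0.126). Neither was called by limma's treat, and edgeR's glmTreat called both. With the index share taken out, limma called the second (1.07, FDR 0.0214).

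Foxo3 was the member whose level moved least. Its group means lay between 61.1 ± 15.4 CPM (SD, n = 4) in XX 24 h DMSO and 132 ± 24.3 CPM in XY 72 h DMSO. No group stood apart from its neighbour in the order of means. At 72 h the XY libraries (109 to 158 CPM) did not overlap those of XX (60.04 to 98.2 CPM), but the difference of 0.75 (95% CI 0.38 to 1.12, FDR 0.340) was not called.

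The order of the 10 group means was set apart from its spread at few places. Of 9 pairs of neighbours, the libraries did not overlap in 3 for Sohlh1, Figla and Ybx2, 2 for Sohlh2, 1 for Taf4b and 0 for Nobox, Lhx8 and Foxo3. For Sohlh1 the groups that stood apart were XY 72 h DMSO from MEKi, MEKi from XX 24 h DMSO, and XY 0 h from XX 0 h. For Figla they were XX 72 h from XX 24 h, XY 72 h FGFRi from XX 0 h, and XX 0 h from XY 24 h MEKi. These orders are those of the deposited counts and moved without the index share. The Sohlh1 means were then 2.65 CPM in XX 24 h DMSO, 3.69 CPM in XY 24 h DMSO and 0.759 CPM in XY 0 h. Figla was then at 3.14 CPM in XX 0 h and 3.48 CPM in XY 24 h MEKi.

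Sex differences of the 8 genes were few at 0 h and 24 h and more at 72 h, when Sohlh1 was the 1 called gene that was higher in XY. At 0 h, 2 of 8 were called (Sohlh1 higher and Figla lower in XY), against 3.0% of all tested genes, and neither was called with the index share taken out. After 24 h DMSO, 2 of 8 were called (Figla and Ybx2, lower), against 9.99% of genes. The somatic marker sums did not overlap at either time, with 46.3 to 107 CPM in XY and 27.1 to 45.1 CPM in XX libraries at 0 h, and 40.3 to 113 CPM and 22.5 to 33.7 CPM at 24 h. The Sertoli cell gene Sox9 was called higher in XY at 24 h (2.64, FDR 0.0161). Of 6 blood markers tested at 0 h, limma called 0, with 4 at an unadjusted p under 0.05, edgeR 4 and DESeq2 0. After 72 h DMSO, 6 of 8 were called, against 41.0% of genes: Sohlh1 higher, and Sohlh2, Figla, Lhx8, Taf4b and Ybx2 lower in XY. Of the somatic markers, Foxl2, Hsd3b1, Nr5a1 and Wt1 were also lower and Tcf21 higher in XY at 72 h. Cdh5 (4.44, FDR 5.17e-06) and Cd68 (3.90, FDR 3.59e-06) were also higher in XY, where the 4 endothelial markers summed to 15.4 to 21.8 CPM, against 5.12 to 9.63 CPM in XX. The part of these cells in the sex differences was not tested. The median log2 fold change of the 8 was -1.60 at 72 h and that of all tested genes 0.10. From 0 h to 24 h the sex difference changed for 1 of 8 (Sohlh1, -3.36, FDR 0.0229, and -1.12 with FDR 1.0 without the index share), against 0.452% of genes. That call was also lost without XX 0 h replicate 4 or 5 or XY 24 h DMSO replicate 5 (highest FDR 0.0915). From 0 h to 72 h it changed for 3 of 8 (Sohlh2, Lhx8 and Ybx2, all towards XX), against 28.9% of genes. For Sohlh1 the change to 72 h was 1.09 (95% CI -0.22 to 2.41) as deposited and 3.51 (FDR 0.0140) without the share.

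**Figure D3:**
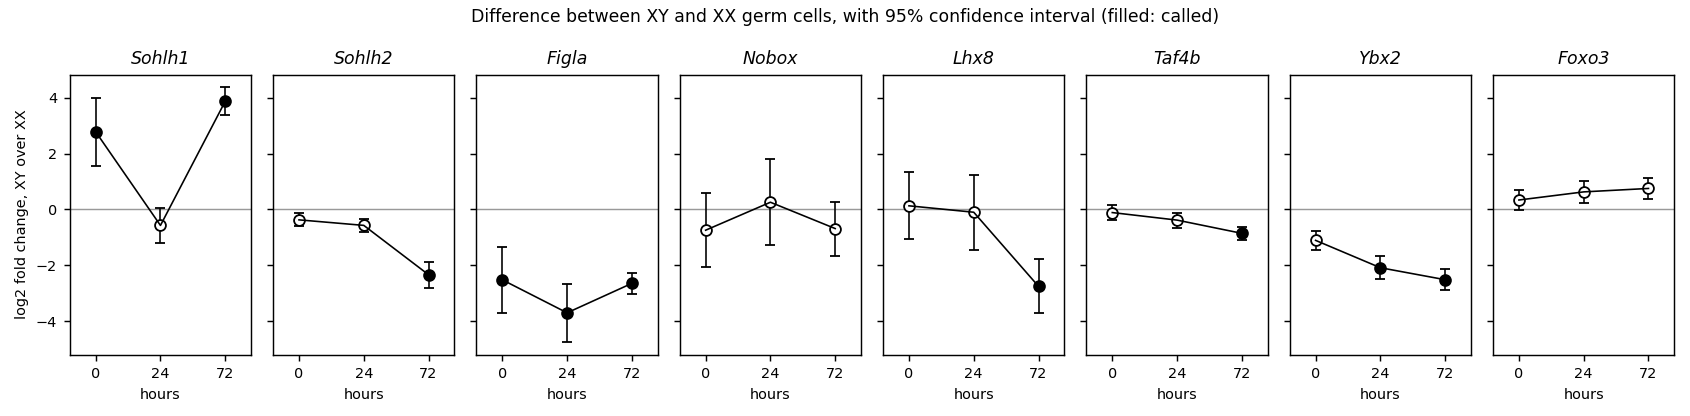
Log2 fold change of XY over XX germ cells for each gene in the 0 h, 24 h DMSO and 72 h DMSO groups, with 95% confidence intervals; filled points were called. Sohlh2, Lhx8, Taf4b and Ybx2 lie lowest at 72 h (-2.34, -2.75, -0.85 and -2.51), Figla is below 0 at each time, and the Sohlh1 points at 0 h and 24 h are those of the deposited counts, before the index share was taken out.

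Time in culture gave 2 of 8 called genes in XX germ cells from 0 h to 24 h (Figla and Sohlh1), against 3.23% of genes, and the call of Sohlh1 was lost without the index share. From 24 h to 72 h, 5 of 8 were called in XX germ cells, against 22.2% of genes. Figla, Lhx8, Nobox and Taf4b rose and Sohlh2 fell. In XY germ cells limma called 0 of 8 from 0 h to 24 h, against 2.94% of genes, with 0 of 8 at an unadjusted p under 0.05 and 0 by edgeR and DESeq2. From 24 h to 72 h, 3 of 8 were called in XY germ cells, against 27.3% of genes. Sohlh1 and Figla rose and Sohlh2 fell. Markers of other cells were called as rising in the same comparison, among them Pdgfra (2.38), the endothelial gene Cdh5 (2.67, FDR 0.000751) and the macrophage gene Cd68 (3.11, FDR 1.38e-05). Pecam1, which germ cells also express, fell (-3.14, FDR 1.66e-08). It was the top gene of the endothelial sum at 24 h, with a mean of 61.2 CPM. That sum went from 31.02 to 94.2 CPM to 15.4 to 21.8 CPM and the blood sum from 40.3 to 133 CPM to 38.7 to 94.8 CPM. The part of these cells was not tested.

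FGFRi and MEKi were given at the same dose and for the same times, and were compared with DMSO and at 72 h with each other. After 24 h, limma called 0 of 8 genes with FGFRi, against 0.262% of genes, and 1 of 8 with MEKi (Sohlh1), against 0.164%. The values of the 2 inhibitors at 24 h come from different pools. For Sohlh1 they were 13.8, 3.23, 25.6 and 7.85 CPM with FGFRi, 0.924, 0, 1.58 and 0 CPM with MEKi, and 10.3, 17.6, 13.3 and 8.86 CPM with DMSO. With the index share taken out, the DMSO mean of Sohlh1 went from 12.51 to 3.69 CPM and the FGFRi mean was 12.7 CPM, and the FGFRi difference was 2.75 (FDR 0.170) and not called. The 8 blood markers summed to 180 to 486 CPM in the 24 h MEKi libraries and 40.3 to 133 CPM in those of DMSO, and their part was not tested. After 72 h, limma called 0 of 8 genes with FGFRi, against 0.00656% of genes. In both FGFRi comparisons 0 of 8 had an unadjusted p under 0.05, and edgeR and DESeq2 called 0. In the deposited counts, the 95% CIs of the 72 h FGFRi effect were within -0.90 and 0.87 for each gene but Lhx8, where the interval ran to 1.33. These bounds did not hold for Sohlh2 with the index share taken out, where the effect was 1.45 (SE 0.54, FDR 1.0).

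**Figure D4:**
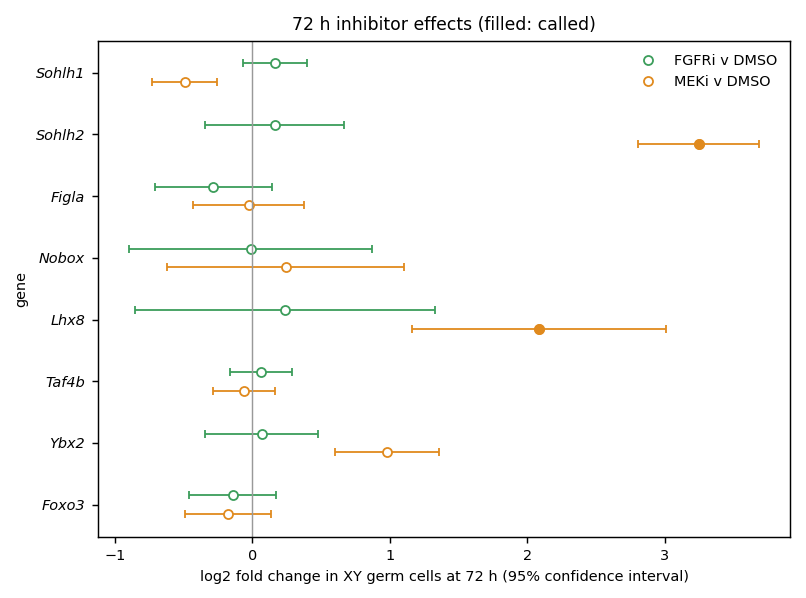
Log2 fold change of FGFRi (green) and MEKi (orange) over DMSO in XY germ cells at 72 h for each gene, with 95% confidence intervals; filled points were called. MEKi points of Sohlh2 (3.25) and Lhx8 (2.09) stand to the right of all FGFRi points, which lie between -0.29 and 0.24.

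After 72 h of MEKi, 2 of 8 genes were called (Sohlh2 and Lhx8, both higher), against 9.12% of genes. When MEKi was compared with FGFRi, Sohlh2 and Lhx8 were again the 2 called, against 12.7% of genes. The somatic marker sum was 71.4 to 125 CPM in MEKi and 46.1 to 62.04 CPM in FGFRi libraries, with Nr2f2 called higher in MEKi (1.94, FDR 0.000250). Cdh5 was called lower in MEKi than in DMSO (-2.54, FDR 0.000942) and FGFRi (-1.92, FDR 0.0195), while the endothelial sums of 9.85 to 28.1 CPM in MEKi overlapped those of both groups. Their part in these comparisons was not tested. Both comparisons share the MEKi libraries. Sohlh1 was lower in MEKi than in DMSO and FGFRi in every library, by -0.49 (95% CI -0.73 to -0.26) and -0.66 (95% CI -0.89 to -0.43), and neither was called (FDR 1.0 and 0.888). Figla and Taf4b differed from DMSO by -0.03 (95% CI -0.43 to 0.38) and -0.06 (95% CI -0.29 to 0.16). The MEKi effect differed between 72 h and 24 h for 2 of 8 genes (Sohlh2 and Sohlh1), against 1.88% of genes. For Sohlh2 the effect was larger at 72 h, and for Sohlh1 it was nearer to 0 (-0.49, against -4.06 at 24 h). For Sohlh1 this interaction was 3.57 (FDR 0.0107), 0.71 (FDR 1.0) without the index share, and 3.12 (FDR 0.0507) without XY 24 h MEKi replicate 6. For Lhx8 it was 3.08 (95% CI 1.32 to 4.84, FDR 0.111).

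XY 72 h MEKi germ cells did not have the levels of XX 72 h germ cells for 5 of the 8 genes, against 30.0% of genes called. Sohlh1 was higher by 3.38 (SE 0.25, FDR 4.83e-14) and Sohlh2 by 0.91 (SE 0.13, FDR 0.0326), and Figla was lower by -2.67 (SE 0.16, FDR 1.20e-16), Ybx2 by -1.53 (SE 0.13, FDR 2.35e-08) and Taf4b by -0.92 (SE 0.11, FDR 0.00863). The Sohlh2 call was lost without XX 72 h replicate 7 or 8 (0.84 and 0.72) or XY 72 h MEKi replicate 3 or 4 (0.88 and 0.91), with a highest FDR of 0.401, and the Taf4b call without XX 72 h replicate 4 (-0.85, FDR 0.0553). In the 11 other alternatives the Sohlh2 call was lost in 4 (highest FDR 0.559), the Taf4b call in 2 (0.367) and the Ybx2 call in 1 (0.133). Foxl2, Hsd3b1 and Wt1, markers of somatic cells, were also higher in the XX libraries of this comparison, and the macrophage gene Cd68 was higher in the MEKi libraries (2.86, FDR 0.00115). Their part was not tested.

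**Figure D5:**
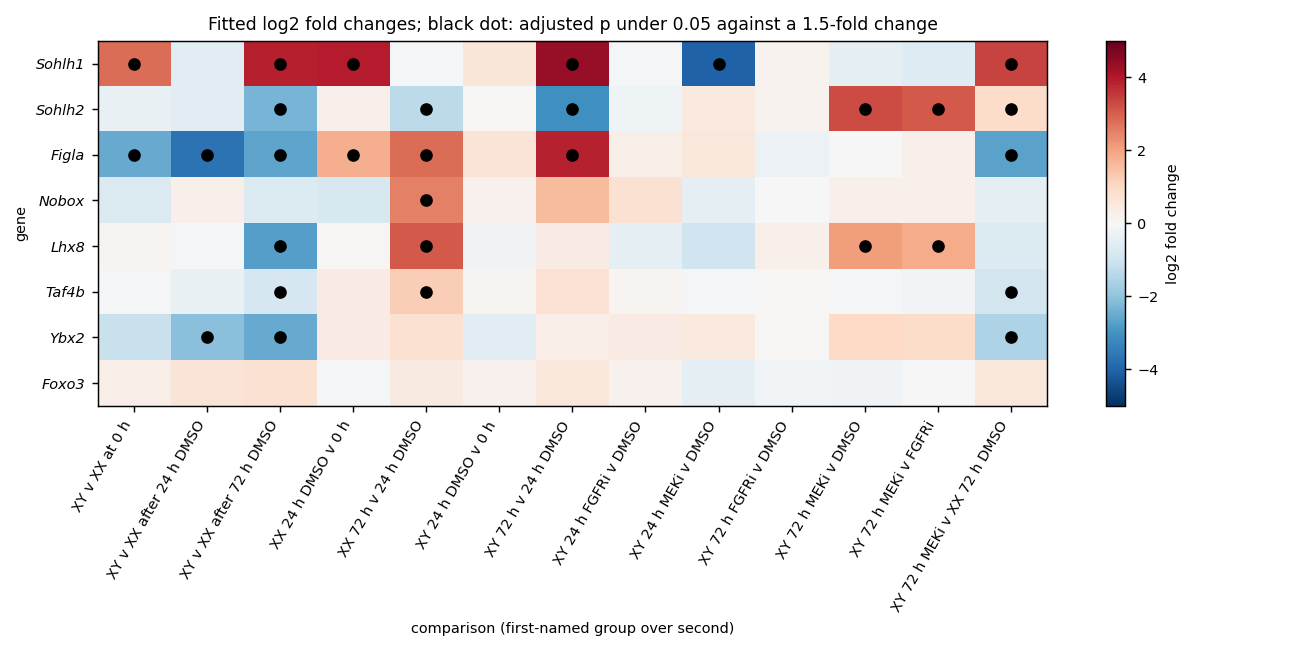
Fitted log2 fold change of each gene (rows) in the 13 comparisons between groups (columns), from blue (lower in the first-named group) to red (higher), with a black dot where the gene was called. Foxo3 has no dot, the columns of FGFRi v DMSO have none, and Sohlh1 and Sohlh2 have opposite colours in the XY v XX comparison at 72 h (3.88 and -2.34) and from 24 h to 72 h in XY germ cells (4.36 and -3.06).

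Of 21 genes of oocytes or known targets of these factors, 12 were below the filter, among them Zp1, Zp2 and Zp3, the zona pellucida genes activated by FIGLA, and Gdf9, a growth factor of the oocyte. Zp1, Zp2, Zp3 and Gdf9 had 49, 60, 57 and 91 counts over all 40 libraries, of which 22, 33, 23 and 30 were in the XY 72 h FGFRi group. These are not scaled for depth, and the libraries of that group held 2262671 to 5199153 counts, against 1475175 to 2047565 in XX 72 h DMSO. Of the 9 tested, 6 were called between the sexes at 72 h, all higher in XY germ cells, where 41.0% of all tested genes were called. They included Nlrp14 (5.34, FDR 2.61e-09), Dppa3 (3.12, FDR 1.18e-15), a maternal factor also expressed in primordial germ cells, Rspo2 (3.36, FDR 0.000430) and the pluripotency gene Pou5f1 (2.88, FDR 1.27e-09). The median log2 fold change of the 9 was 2.27, against 0.10 for all tested genes. In XX germ cells 5 of 9 fell from 24 h to 72 h, against 22.2% of genes called. With MEKi at 72 h limma called 1 of 9, against 9.12% of genes (Tle6, a subunit of the subcortical maternal complex, -1.06, FDR 0.0206), edgeR 3 and DESeq2 0.

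Kit, the receptor that acts through PI3K and AKT on FOXO3 and a target of the SOHLH factors, fell from 24 h to 72 h in XX (-2.001, FDR 1.20e-06) and XY germ cells (-1.42, FDR 0.000903). Of the 15 genes of the KIT, PI3K, AKT and FOXO3 pathway, all tested, 5 were called between the sexes at 72 h, against 41.0% of all tested genes. Pdpk1, the kinase that activates AKT, was lower in XY (-2.24, FDR 2.67e-16), as were Kitl (-3.72, FDR 5.73e-06), the KIT ligand made by somatic cells, and Pik3r1 (-1.48, FDR 0.00265). Akt2 (1.26, FDR 8.09e-05) and Mtor (0.87, FDR 0.0108) were higher. With either inhibitor at 24 h or 72 h limma called 0 of the 15, as did DESeq2. An unadjusted p was under 0.05 for 1 of them with FGFRi at 24 h and for 3 with MEKi at 72 h, of which edgeR called 2.

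Of 17 partners and relatives of the members, all tested, 6 were called between the sexes at 72 h, against 41.0% of all tested genes. Among the E proteins, which pair with bHLH factors such as FIGLA, Tcf3 (1.30, FDR 1.15e-05) and Tcf4 (1.16, FDR 0.000109) were higher in XY germ cells. Taf7l, a germ cell paralogue of a TFIID subunit, was lower in XY (-2.54, FDR 3.33e-18), and Ybx1, a relative of Ybx2, was higher (1.53, FDR 2.04e-12), the reverse of Ybx2. With MEKi at 72 h, 3 of the 17 were higher than with DMSO, against 9.12% of genes called: Ybx3 (1.40, FDR 8.59e-05), Lhx2 (1.40, FDR 0.0330) and Taf7l (1.04, FDR 0.0110). Of the other factors used with members of this set to make oocyte-like cells, Stat3 rose from 24 h to 72 h in XX (1.26, FDR 0.000175) and XY germ cells (2.02, FDR 1.12e-10), limma called neither Sub1 nor Dynll1 in these comparisons, while edgeR called 2 of the 3 genes tested in XY, and Tbpl2 had 4 counts in all.

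Across the 10 group means of log2 CPM, the gene most like Sohlh1 was Nxf2 (Pearson r = 0.979), followed by Tdrd1, a Tudor protein of the piRNA pathway (r = 0.976), and Zfp536 (r = 0.971). For Figla they included Hormad1, a protein of the meiotic chromosome axis (r = 0.988), and Nmb (r = 0.986). For Sohlh2 they were Ankle1 (r = 0.988), Mob1a and Ube2m, for Lhx8 App (r = 0.959), Plk2 and Vhl, and for Nobox Polb (r = 0.953), Cyp46a1 and Ak7. Heatr5b, Syt11 and Ccng2 were most like Taf4b (r = 0.987 to 0.992), Pde8a, Zfp398 and St7 most like Ybx2 (0.980 to 0.987), and Chit1, Zfp87 and Gm11512 most like Foxo3 (0.947 to 0.978). Among the members, Figla and Taf4b were most alike (r = 0.939), and Sohlh1 and Sohlh2 least (r = -0.725). These correlations are descriptions over 10 means from the same 40 libraries, as deposited, with the index share left in. By Spearman's rank correlation Tdrd1 was again among the 3 genes most like Sohlh1.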

How the data were processed

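The deposited counts are whole numbers per gene and library, with reads of one molecular identifier collapsed by the authors, and the authors did not normalise or filter them. Per the authors' methods and code, RNA was primed at the poly(A) tail with a sample index and a unique molecular identifier, Rsubread aligned the reads to GRCm39 within a scPipe workflow, and counting used the strand. The annotation release and versions of these tools were not given in the sources used here, and the submitters' processing notes name GRCm39, edgeR and limma. Reads start from the poly(A) end, so levels were not divided by length, and they were not compared between genes.

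The 8 genes and all gene lists were chosen with earlier results of these data known. The labels of the 40 libraries gave their groups. Genes were kept with filterByExpr (minimum count 10, minimum total 15), scaled by TMM and fitted over all 40 libraries, with 1 mean per group, by limma 3.58.1 (voomWithQualityWeights, then treat against a fold of 1.5) in R 4.3.3. Adjusted p (FDR) is by Benjamini-Hochberg over the 15252 genes tested. CPM are TMM-scaled. The same fit on simulated data for XY 72 h MEKi v DMSO, over 14158 genes, recovered 26% of genes changed 2-fold and 90% of those changed 4-fold, with 0 false calls. There all groups shared the same means but for 50 genes per fold in MEKi, drawn above the lowest levels. No index share was added, so these rates need not hold for the real data. Alternatives were other scalings and filters, voom without weights, eBayes, edgeR 4.0.16, DESeq2 1.42.0, only the groups compared, a replicate block, the index share taken out and each library left out. To estimate the share, genes were taken that had at least 40 counts and 20 CPM in the partner and a level 100 times that of the pool's libraries without a partner. The share in pool 2 (5.017%) rests on 23 values, and that in pool 1 on 324. Named genes were the 8 members, the 3 genes most like each, called genes of the lists, at most the 4 with the largest change per list and comparison, and Zp1, Zp2, Zp3, Gdf9 and Kit. Nr2f2, Mtor, Rhox13, Cdh5, Cd68 and Pecam1 fall outside that rule and were named after their values were seen, and 2 genes are not reported here. Depth limits low counts, and intervals are at 95%.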

Additional observations from a re-analysis of the deposited data

Results flagged for a closer look

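In 6 of 80 groups of 4 libraries (8 genes in 10 groups), 1 library lay far from the other 3 by Dixon's ratio of the gap to the group's range. Chance flags about 1 in 20 groups. Of the 6, 3 were in the same library, XX 24 h DMSO replicate 6, which was high for Figla (71.8 CPM), Lhx8 (3.44 CPM) and Foxo3 (84.1 CPM). The others were XY 72 h MEKi replicate 5, low for Sohlh2 at 103 CPM in a group that spanned 5.9 CPM, XY 0 h replicate 5, high for Figla at 4.42 CPM or 5 counts, and XY 24 h DMSO replicate 5, high for Nobox at 2.69 CPM or 10 counts.

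The effects of 2 contrasts differed by a tested interaction in 6 cases. The XY minus XX difference was lower at 72 h than at 0 h for Sohlh2 (-1.97), Lhx8 (-2.89) and Ybx2 (-1.41), and lower at 24 h than at 0 h for Sohlh1 (-3.36). The MEKi effect in XY germ cells at 72 h less that at 24 h was 2.77 for Sohlh2, whose effect was larger at 72 h, and 3.57 for Sohlh1, whose effect was negative and nearer to 0 at 72 h. Both interactions of Sohlh1 involve libraries whose counts followed their index partner, and they were -1.12 and 0.71 without that share. Without it, the 72 h sex interactions were -3.70 for Sohlh2, -3.50 for Lhx8 and -1.54 for Ybx2, and the MEKi interaction of Sohlh2 was 4.63.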

How the results depend on the processing

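Of 36 calls of a gene in a comparison, 19 held under every alternative, and 11 were lost without at least 1 library. With the index share taken out, the genes called were 0 in XY v XX at 0 h, 1 in XX 24 h v 0 h, 0 in XY 24 h MEKi v DMSO, 0 in the 24 h sex interaction and 1 in the MEKi interaction, and the log2 fold change of Sohlh1 in XX 72 h v 24 h went from -0.09 to 2.65. With no filter on low counts they were 0, 1, 1 and 0 in XY v XX at 0 h, XX 24 h v 0 h, MEKi v FGFRi at 72 h and the 24 h sex interaction. Voom without weights gave 1 in XY v XX at 0 h. With eBayes and an observed fold over 1.5 they were 5 in XY 72 h v 24 h, 4 in MEKi v FGFRi and 2 in the 24 h sex interaction. Apart from the replicate block and single libraries left out, all other counts were within 1.5 times those reported.

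Replicate numbers did not pair the libraries: the correlations of same-numbered libraries' deviations ran from -0.125 to 0.144. With the replicate block, 1 gene was called in XY v XX at 0 h, 1 in XX 24 h v 0 h, 3 in XX 72 h v 24 h, 1 in MEKi v FGFRi, 3 in MEKi v XX 72 h, 0 in the 24 h sex interaction and 1 in the 72 h sex interaction. Leaving out 1 library gave 0 to 2 called genes in XY v XX at 0 h, 5 to 6 at 72 h, 1 to 2 in XX 24 h v 0 h, 0 to 1 in 24 h MEKi v DMSO, 1 to 2 in 72 h MEKi v DMSO, 4 to 5 in MEKi v XX, and 0 to 1, 2 to 3 and 1 to 3 in the interactions. Other causes were not tested.

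Over all genes, eBayes moved the number called by over 1.5 times in 15 of 16 comparisons (86 to 9022 called per comparison, against 1 to 6250 as reported), edgeR in 8 (2 to 7231), the block in 8 (0 to 3888), the index share in 3, DESeq2 in 1 and a fit of only the groups compared in 1. Without scaling beyond library totals, the median of all genes moved by up to 0.217, by up to 0.116 with median ratio size factors and by up to 0.564 with no filter. Of the members' calls, Taf4b lost both sex calls at 72 h without scaling (-0.75 and -0.69). Levels of Nobox and Lhx8 are limited by counts of at most 28 and 45 per library. Spearman's correlation gave 1 of the same 3 most-alike genes for Sohlh1, 2 for Foxo3 and 0 for the other members.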

Other observations

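Genes of the spermatogonial state, in which SOHLH1 and SOHLH2 also act, were largely XY-high at 72 h, as Sohlh1 was, while Sohlh2 was XX-high. Of 12 such genes, 10 were tested and 9 were called between the sexes, 8 of them higher in XY, against 41.0% of all tested genes called. Nanos2, the RNA-binding protein of male germ cell commitment, was higher by 5.34 on the log2 scale (FDR 8.04e-08), Zbtb16 by 5.02 (FDR 2.14e-06) and Nanos3 by 4.12 (FDR 2.14e-07), and Rhox13 was lower by -3.30 (FDR 4.94e-14). With MEKi at 72 h, 3 of the 10 were called, against 9.12% of all tested genes: Rhox13 (2.01, FDR 1.45e-05) and Dmrt1 (1.54, FDR 4.91e-08) were higher than with DMSO, as Sohlh2 was, and Nanos2 was lower (-1.25, FDR 0.0377). Rhox13 and Dmrt1 were also higher in MEKi than FGFRi, by 1.71 (FDR 3.71e-06) and 1.203 (FDR 1.85e-05), and Nanos2 was not called there.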
